A study of Ovis aries with 16 samples.

Results

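Gene expression in the frontal cortex of fetal sheep that had been through a short period of hypoxia was compared with that of fetuses kept in normoxia, over animals with and without ketamine. All 9 hypoxia arrays were set against all 7 normoxia arrays, with ketamine given or not as a covariate, so the comparison used all 16 arrays of the series, 1 array per fetus. The fetuses were late in gestation and carried long-term catheters, and hypoxia was brought about by lowering the oxygen in the gas the ewe breathed for 30 min, after which the fetus recovered in normoxia for 23.5 h. Normoxia control was 3 fetuses without ketamine and normoxia + ketamine 4 fetuses that had received 3 mg/kg intravenously. Hypoxia control was 5 fetuses without ketamine and hypoxia + ketamine 4 fetuses given the same dose before the hypoxia. Cortex was collected 24 h after the stimulus began, so every value is a single late time point. Most of the fetuses were twins, and the sources do not say whether both twins of a ewe were used. The arrays lay on 2 slides, each of which held arrays of all 4 groups. Neuron markers (NPY, NEFH and SST) had a mean log2 signal of 11.85 to 12.25 in the hypoxia arrays and 12.05 to 12.3 in the normoxia arrays, and the astrocyte gene AQP4 had 15.03 to 15.91 and 15.29 to 15.63, so markers of cortical cells were present on every array.

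The labels of 1 array conflict. Hypoxia control replicate 1 is a hypoxia control by its title and code, and its source name and characteristics describe a normoxia fetus given ketamine. It was counted as hypoxia control here, and results are also given without it and with it moved to normoxia + ketamine.

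Low oxygen stabilizes the transcription factor HIF-1, which switches on genes for glucose uptake and glycolysis, and reperfusion and injury engage the innate immune system through toll-like receptors, NF-κB and interferons. In the brain these signals act on microglia, astrocytes and vessel walls, and white blood cells can enter from the blood. Ketamine blocks the NMDA type of glutamate receptor and has known anti-inflammatory actions.

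With ketamine as a covariate, 1159 of 15008 probes (7.72%) were called at an unadjusted P under 0.05 with limma's moderated test, the threshold of the study's methods. Higher in hypoxia were 530 (3.53%) and lower were 629 (4.19%), a split that turned to 549 higher and 430 lower with the scanner's processed signal scaled to its 75th percentile. After Benjamini-Hochberg adjustment over all probes 0 were called, and the lowest adjusted P was 0.361, so each call that follows is a call at the unadjusted threshold only. The named part of the array was 1003 genes, each by its brightest probe, of which 66 (6.58%) were called higher and 42 (4.19%) lower. Of the called probes 45 were at least 2-fold higher and 0 at least 2-fold lower, which the scanner's own processed signal put at 110 or 114 and 23 or 18 by its scaling, and the median size of a called difference was 0.2 on the log2 scale. Without hypoxia control replicate 1, 549 probes were higher and 681 lower, and 4 passed adjustment, 2 of them the probes of the beta-2-microglobulin gene. With that array in normoxia + ketamine, 497 were higher and 666 lower, 720 of the main calls were made again, and 7 probes passed adjustment. On slide 2 alone, with 8 arrays, 243 were higher and 308 lower.

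The 12 largest increases among called named genes ran from 3.21 to 0.83 on the log2 scale, and the 12 largest decreases from -0.88 to -0.27. Of these 24 genes, 22 were called without hypoxia control replicate 1 and 18 with it in normoxia + ketamine. All 24 were called with the slide as a block, and all 24 had the same sign on slide 1 and on slide 2. Signs were also the same in both ketamine arms for all 24. A selection on the pooled difference favors equal signs across slides as well as arms.

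**Figure D1:**
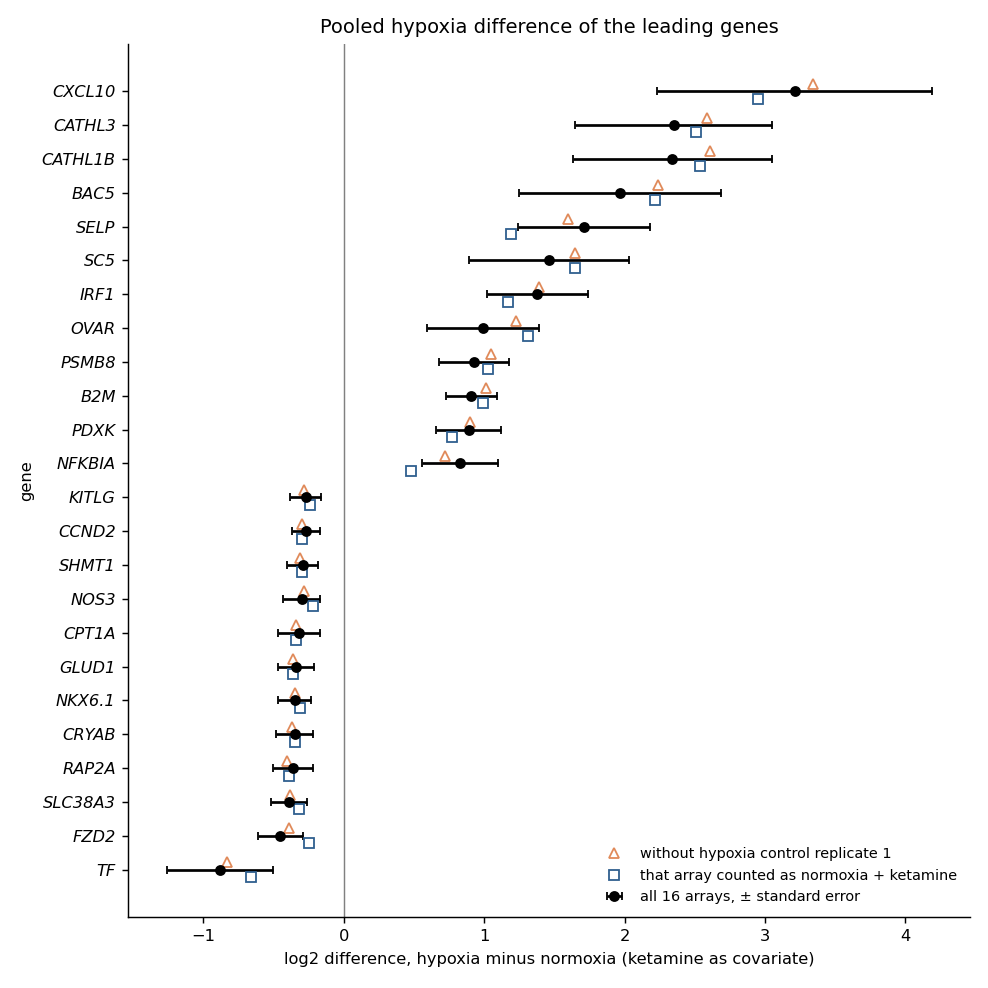
Pooled hypoxia difference (log2, hypoxia minus normoxia with ketamine as covariate) of the 24 leading genes, as black points with standard errors from all 16 arrays. Open triangles leave out hypoxia control replicate 1 and open squares count it as normoxia + ketamine, which brings SELP to 1.19 and NFKBIA to 0.48 and moves the cathelicidin genes up.

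**Figure D2:**
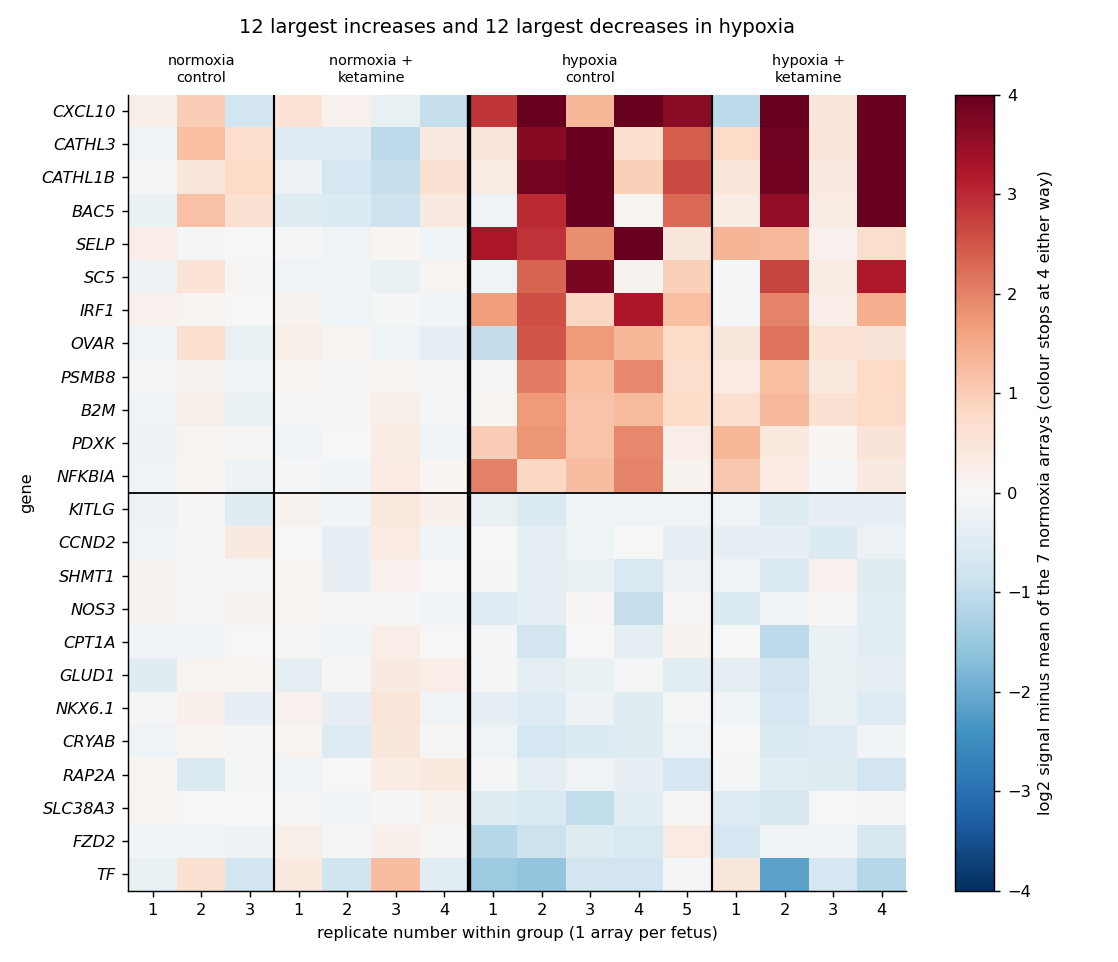
Log2 signal of the 24 leading genes on each of the 16 arrays, as the distance from the mean of the 7 normoxia arrays (red higher, blue lower, colour stops at 4 either way). The increases differ between hypoxia fetuses, with the cathelicidin genes near normoxia levels in hypoxia control replicates 1 and 4 and hypoxia + ketamine replicates 1 and 3.

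CXCL10, a chemokine that interferons induce and that draws T cells, showed the largest increase. In the 7 normoxia fetuses its log2 signal lay between 7.59 and 9.51 with a median of 8.70. Hypoxia control fetuses 1 to 5 read 11.36, 14.79, 9.84, 15.93 and 12.11, and hypoxia + ketamine fetuses 1 to 4 read 7.46, 13.55, 8.99 and 12.99. All 5 hypoxia control fetuses and 2 of the 4 with ketamine were above every normoxia fetus, and 1 hypoxia fetus was below all of them. The pooled difference was 3.21 ± 0.98 (standard error), a 9.27-fold increase (exact permutation within the ketamine arms, two-sided, p = 0.013; limma adjusted P = 0.438). It was 3.34 without hypoxia control replicate 1 and 2.95 with that array moved.

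IRF1, a transcription factor of the interferon response, had normoxia values from 7.21 to 7.57 with a median of 7.37, and hypoxia values from 7.31 to 10.64 with a median of 8.85. Of the 9 hypoxia fetuses, 8 were above the highest normoxia fetus, and the exception, hypoxia + ketamine replicate 1, was inside the normoxia range. The difference was 1.38 ± 0.36 (exact permutation within the ketamine arms, p = 0.0038; limma adjusted P = 0.422), and it ran from 1.28 to 2.31 over the other corrections and scalings.

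Beta-2-microglobulin (B2M), the light chain of MHC class I molecules, kept its call in each of 14 alternative settings and with any single array left out. In normoxia control it read 13.85, 14.23 and 13.73, and in normoxia + ketamine 13.92, 14.03, 14.22 and 13.91. Hypoxia control read 14.10, 15.68, 15.12, 15.24 and 14.72, and hypoxia + ketamine 14.63, 15.29, 14.60 and 14.76. Only hypoxia control replicate 1, the array with conflicting labels, fell inside the normoxia range. The difference was 0.91 ± 0.18 (exact permutation within the ketamine arms, p = 0.00077; limma adjusted P = 0.361), and a second probe, which shares 59 of its 60 bases, gave 0.94. Without hypoxia control replicate 1 the difference was 1.01 ± 0.15 and the adjusted P from limma was 0.0337, and with that array moved it was 0.99 with an adjusted P of 0.0205.

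PSMB8, a subunit of the immunoproteasome that cuts proteins into peptides for MHC class I, went from a normoxia median of 7.79 (7.67 to 7.99) to a hypoxia median of 8.65 (7.87 to 9.87), with 8 of 9 hypoxia fetuses above all normoxia fetuses and hypoxia control replicate 1 inside their range. Its difference was 0.93 ± 0.25, or 0.87 to 1.43 over the other corrections and scalings (exact permutation within the ketamine arms, p = 0.0048; limma adjusted P = 0.438). OVAR, which the files describe as an MHC class I antigen, was 0.99 ± 0.40 higher by one probe (exact permutation within the ketamine arms, p = 0.040; limma adjusted P = 0.584) and 1.09 ± 0.38 by another. Hypoxia control replicate 1 had the lowest OVAR signal of all arrays, 11.94 against 12.55 to 13.53 in normoxia, and the call was lost without normoxia control replicate 3 or without hypoxia + ketamine replicate 2. MHC class I genes are near-identical copies, so a probe may read several of them.

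Interferon-stimulated genes were represented by 8 members of a list of 49, and 5 of the 8 were called higher (CXCL10, IRF1, B2M, PSMB8 and IRF2) and 0 lower, with a median difference of 0.92 against -0.0044 over the 1003 named genes. The count was 4 without hypoxia control replicate 1 or with it moved, and 4 to 5 over the other background corrections and scalings. The 3 not called were ISG15 (0.06 ± 0.90), MX1 (0.68 ± 0.53) and MX2 (1.07 ± 0.68), antiviral genes whose spread between hypoxia fetuses was wide: ISG15 went from 5.92 to 15.99, on a saturated spot, in hypoxia and from 10.34 to 12.29 in normoxia. In hypoxia control replicate 4 ISG15, MX1 and MX2 were at their highest, as was CXCL10. Of 6 antigen presentation genes, 4 were called higher (B2M, PSMB8, CD86 and CD1D) and CTSS and CD80 were not, against 6.58% called higher over all named genes. With hypoxia control replicate 1 moved, 3 of the 6 were called.

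The probes behind these values are 60 bases long and are shown so that the transcript measured can be looked up, with capitals for the letters AATAAA, the common polyadenylation signal. The letters were searched on the printed strand only, and 5.63% of all 15008 probes hold them.
CXCL10: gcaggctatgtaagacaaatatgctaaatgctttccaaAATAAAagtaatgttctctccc
IRF1: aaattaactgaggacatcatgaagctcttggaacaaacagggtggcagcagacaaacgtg
B2M: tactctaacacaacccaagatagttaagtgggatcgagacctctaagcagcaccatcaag
PSMB8: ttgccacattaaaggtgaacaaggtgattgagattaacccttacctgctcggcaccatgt
OVAR: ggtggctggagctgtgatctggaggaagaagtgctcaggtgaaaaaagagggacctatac
Only the CXCL10 probe of these 5 holds the letters.

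**Figure D3:**
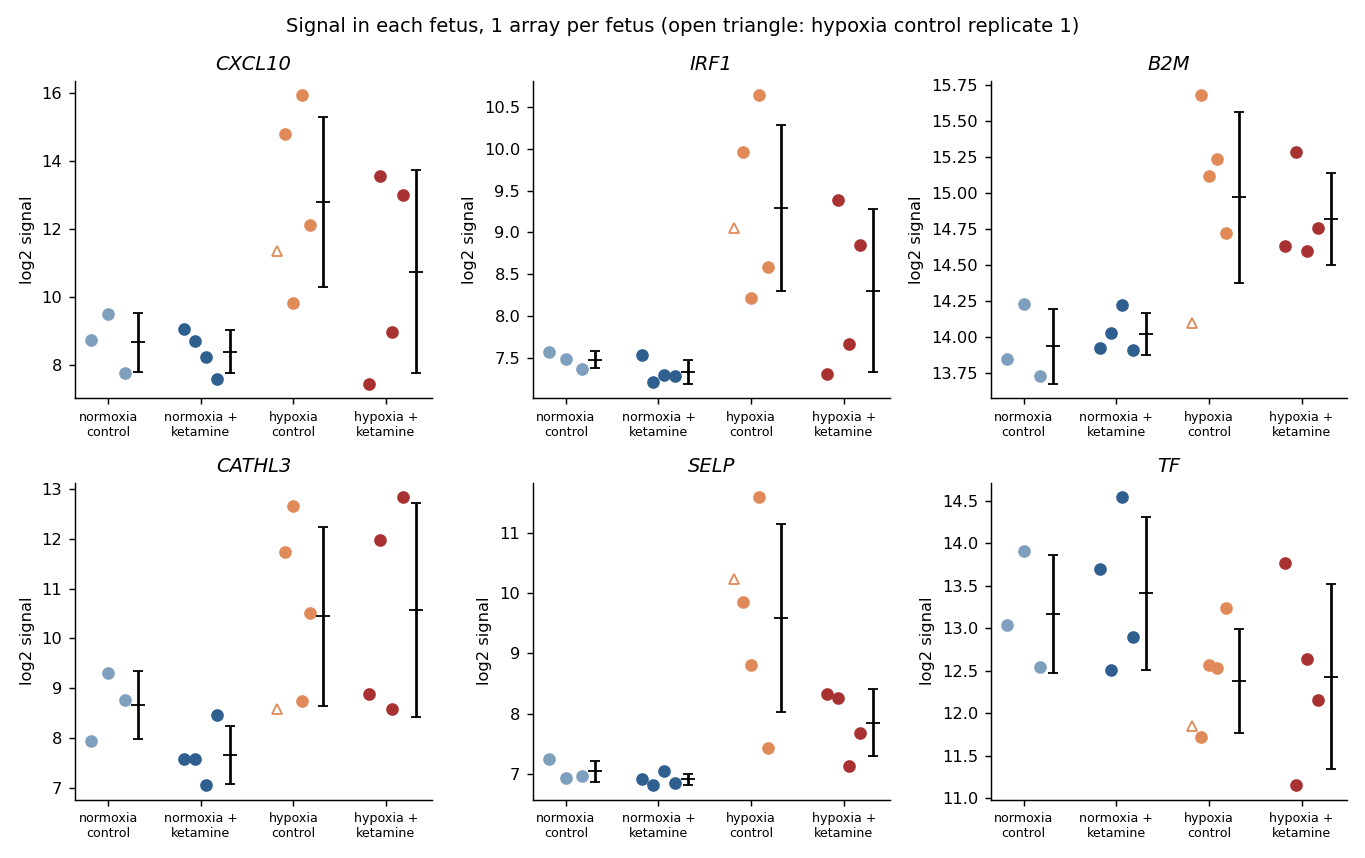
Log2 signal of 6 genes in each fetus of the 4 groups (points, with group mean and SD as a bar beside them), hypoxia control replicate 1 as an open triangle. Normoxia fetuses lie close together for IRF1, B2M and SELP and farther apart for CXCL10 and CATHL3, and hypoxia fetuses spread over several log2 units for CXCL10 and CATHL3.

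Cathelicidins are antimicrobial peptides stored in the granules of neutrophils. The 4 cathelicidin genes on the array filled 4 of the 6 first places among the increases of named genes with the background correction used here. With the scanner's processed signal SELP, IRF1 and LYZ stood above SC5. CATHL3 (BAC7.5 in the files) read 7.06 to 9.30 in normoxia with a median of 7.95. Hypoxia control fetuses 1 to 5 read 8.58, 11.74, 12.65, 8.74 and 10.51, and hypoxia + ketamine fetuses 1 to 4 read 8.89, 11.98, 8.58 and 12.83. Thus 5 of the 9 hypoxia fetuses were above every normoxia fetus and the other 4 were within the normoxia range. The pooled difference was 2.35 ± 0.70 (exact permutation within the ketamine arms, p = 0.0097; limma adjusted P = 0.438).

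The other cathelicidin genes were higher in the same 5 fetuses (hypoxia control 2, 3 and 5, hypoxia + ketamine 2 and 4), with hypoxia control replicate 4 just above the normoxia range for CATHL1B only. CATHL1B, the dodecapeptide gene, was 2.34 ± 0.71 higher, with a hypoxia median of 11.08 (8.76 to 13.25) against 8.37 (7.54 to 9.24). BAC5 was 1.97 ± 0.72 higher and SC5 1.46 ± 0.57. For CATHL3, CATHL1B, BAC5 and SC5 the differences with ketamine (2.90, 2.56, 2.46 and 1.64) were at least as large as those without it (1.77, 2.11, 1.45 and 1.27), and the interaction was called for none of them (limma P from 0.441 to 0.763). The pooled differences were 2.59, 2.61, 2.24 and 1.65 without hypoxia control replicate 1. In the sheep reference assembly ARS-UI_Ramb_v3.0 the 4 genes share a single stretch of 7 genes. Their probes are compared here because related genes may be read by each other's probes, with capitals for the longest stretch that each shares with another of the 4.
CATHL3: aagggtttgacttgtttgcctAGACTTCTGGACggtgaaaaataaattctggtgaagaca
CATHL1B: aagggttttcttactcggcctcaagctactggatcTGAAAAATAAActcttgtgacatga
BAC5: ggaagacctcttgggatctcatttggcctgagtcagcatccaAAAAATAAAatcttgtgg
SC5: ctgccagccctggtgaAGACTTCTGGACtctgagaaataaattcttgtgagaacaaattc
All 4 hold AATAAA, and with CXCL10 and TF they make up the 6 of the 24 leading genes whose probes do. The longest identical stretch between any 2 of them was 12 bases of 60 (CATHL3 and SC5), and between BAC5 and SC5 it was 7. Probes were compared with each other and not with the transcripts, so whether a probe reads another of the 4 genes was not tested.

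Of 6 neutrophil markers on the array, CATHL3, BAC5 and SC5 were called higher and CYBB, LTF and MMP9 were not, against 6.58% called higher over all named genes, and 4 were called without hypoxia control replicate 1. LTF, the lactoferrin gene of neutrophil granules, differed by 0.42 ± 0.26, and MMP9 was not well above background on any array. The mean log2 signal of the 6 ranged from 7.62 to 10.04 in hypoxia and from 7.29 to 8.15 in normoxia. In a piece of tissue, more cells of a type and more RNA per cell cannot be told apart. Of 3 red blood cell genes AHSP was called, 0.67 ± 0.24 higher (0.58 to 1.28 over the other corrections and scalings), and HBB was at 0.12 ± 0.42. HBB ranged from 12.63 to 15.94 in hypoxia and from 13.32 to 14.88 in normoxia, and CA1 was not well above background on any array. The part of blood left in the tissue in these results was not tested.

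SELP, the gene of P-selectin, by which activated endothelium and platelets catch white blood cells, was low in normoxia, where it read 6.82 to 7.24 and was well above background on 3 of 7 arrays, so that it entered the leading genes through the hypoxia groups. In hypoxia control it read 10.24, 9.85, 8.81, 11.59 and 7.43, and in hypoxia + ketamine 8.32, 8.25, 7.13 and 7.68. All hypoxia fetuses but hypoxia + ketamine replicate 3 were above the normoxia range. The difference was 1.71 ± 0.47 (exact permutation within the ketamine arms, p = 0.0033; limma adjusted P = 0.438), and a second probe gave 1.19 ± 0.41. With hypoxia control replicate 1 moved the difference was 1.19 and was no longer called. For this dim probe the size depends on how background is handled, from 1.52 to 3.53 over the other corrections and scalings. Both probe sequences are shown, and neither holds AATAAA.
SELP: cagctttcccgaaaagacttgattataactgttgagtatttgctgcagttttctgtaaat
SELP, other probe: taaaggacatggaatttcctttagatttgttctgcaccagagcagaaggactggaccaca

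ICAM1, the endothelial ligand of leukocyte integrins, was 0.63 ± 0.28 higher, with 5 of 9 hypoxia fetuses above the normoxia range and a highest value of 9.63 in hypoxia control replicate 4. It was well above background on 3 of 7 normoxia arrays, and its size ran from 0.53 to 1.57 over the other corrections and scalings. Its call was lost when any 1 of 6 arrays was left out, hypoxia control replicate 1 among them (0.63 ± 0.30), and with that array moved (0.49). Of 11 genes for adhesion and leukocyte traffic, SELP and ICAM1 were called higher and 0 lower, against 6.58% and 4.19% of all named genes, and with hypoxia control replicate 1 moved 0 were called. SELE was not well above background on any array, and the integrin gene ITGB2 differed by 0.24 ± 0.18. Their median was 0.043. Of 11 endothelial marker genes, SLC2A1 and ABCB1 were called higher and NOS3 lower, but 0 were called either way with hypoxia control replicate 1 moved, and without it 1 was higher and 0 lower. Without normoxia control replicate 1 or hypoxia + ketamine replicate 1 no member was called either way. The list had means of 8.66 to 9.19 in hypoxia and 8.76 to 8.99 in normoxia.

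In the toll-like receptor and NF-κB pathway, 4 of 18 genes were called higher and 1 lower, against 6.58% and 4.19% of all named genes, in a list whose members the study had partly chosen on these fetuses. With hypoxia control replicate 1 moved, 2 were called higher. NFKBIA, the NF-κB inhibitor that NF-κB itself induces, went from 10.69 (10.52 to 11.05) to 11.57 (10.66 to 12.75), a difference of 0.83 ± 0.27 (exact permutation within the ketamine arms, p = 0.015; limma adjusted P = 0.450). It was 0.48 and not called with hypoxia control replicate 1 moved. CD14, the lipopolysaccharide co-receptor of microglia and macrophages, read 7.84 to 8.20 in normoxia and 8.03 to 9.60 in hypoxia, where 7 of 9 fetuses were above the normoxia range (0.57 ± 0.19; exact permutation within the ketamine arms, p = 0.015). TLR2 was 0.32 ± 0.11 and TLR3 0.16 ± 0.059 higher, and TRAF3, an adaptor of these receptors, was lower (-0.17 ± 0.073). Over the other corrections and scalings CD14 reached 0.90, TLR2 0.66, TLR3 0.30 and TRAF3 -0.27. TLR4 at 0.15 ± 0.083, MYD88 at 0.11 ± 0.13 and IKBKB at 0.06 ± 0.057 were not called. They reached 0.42, 0.26 and 0.16 over the other corrections and scalings, and TLR4 gained the call in 4 of the alternatives, leave-outs included.

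Of 33 cytokine, chemokine and receptor genes, CXCL10, TNF and IL1RN were called higher and 0 lower, where 6.58% of all named genes were called higher, and the list's median difference was 0.025. The count was 1 to 5 when 1 array was left out, 5 without hypoxia control replicate 5 and 1 without any of normoxia control replicates 1, 2 and 3, normoxia + ketamine replicates 2 and 4, hypoxia control replicate 2 and hypoxia + ketamine replicate 2. TNF was 0.31 ± 0.14 higher, from 7.03 (6.94 to 7.17) to 7.43 (6.92 to 7.95). It was well above background on 3 of 7 normoxia arrays, and its size ran from 0.23 to 0.95 over the other corrections and scalings. IL1RN, the natural antagonist of interleukin-1, was well above background on only 2 of 16 arrays. CXCL8, a neutrophil attractant, stood at 1.00 ± 0.50 and was not called. Its 3 highest hypoxia values were 11.06 and 10.68 in hypoxia control replicates 4 and 1, and 8.00 in hypoxia + ketamine replicate 2, against at most 7.34 in normoxia. IL1B (0.30 ± 0.20) and IL6 (-0.08 ± 0.21, with normoxia + ketamine replicate 4 missing as an outlier spot) were not called. Among the 14 genes on the array that the study followed up by PCR, which were picked with these arrays in view, 5 were called higher (CXCL10, NFKBIA, CD14, TLR2 and TNF) and 0 lower, while BCL2, BAX, BAD, AKT1 and PRKACA lay between -0.05 and 0.04, with the sign of BCL2 and PRKACA changing between settings. With hypoxia control replicate 1 moved, 3 of the 14 were called.

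Microglia and macrophage markers were 8 genes on the array, of which CD14, LYZ and FCER1G were called higher and 0 lower, against 6.58% called higher over all named genes. The count was 1 without hypoxia + ketamine replicate 2 and 2 to 4 without any other single array, and the list's median difference was 0.38 without ketamine and 0.055 with it. The mean over them ranged from 8.29 to 9.25 in hypoxia and from 8.26 to 8.54 in normoxia. LYZ, the lysozyme gene, was well above background on 6 of 9 hypoxia and 2 of 7 normoxia arrays. Of 8 lymphocyte markers, CD5 (0.61 ± 0.17, 0.57 to 1.01 over the other corrections and scalings, with 8 of 9 hypoxia fetuses above the normoxia range) and LCK (0.15 ± 0.065) were called higher, while the list split into 4 positive and 4 negative differences with a median of -0.0093. CD3E stood at 0.08 ± 0.15 and CD28 at -0.24 ± 0.11, the latter well above background on 2 of 16 arrays, and CD4 was not well above background on any array. GFAP, the intermediate filament of reactive astrocytes, was the 1 called gene of 6 astrocyte markers, 0.42 ± 0.14 higher. It was 0.78 higher without ketamine and 0.08 with it (an interaction called by limma at the unadjusted threshold and not after adjustment), and 0.28 and not called with hypoxia control replicate 1 moved. AQP4 and GJA1 differed by -0.03 ± 0.098 and 0.09 ± 0.11.

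Of 20 genes of the hypoxia-inducible factor pathway, 7 were called higher and 2 lower, against 6.58% and 4.19% of all named genes, with a median of 0.052. SLC2A3, the main glucose transporter of neurons, read 13.47, 13.24 and 13.32 in normoxia control and 13.15, 13.29, 13.44 and 13.03 in normoxia + ketamine. Hypoxia control read 15.04, 14.23, 14.16, 14.18 and 13.53, and hypoxia + ketamine 14.05, 13.53, 13.27 and 13.29. Of the 9 hypoxia fetuses 7 were above every normoxia fetus, and the highest was hypoxia control replicate 1. The difference was 0.59 ± 0.18 (exact permutation within the ketamine arms, p = 0.0089; limma adjusted P = 0.438), 0.48 without that array, and 0.27 and not called with it moved.

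SLC2A1, the glucose transporter of the blood-brain barrier and of astrocytes, was 0.41 ± 0.17 higher, and hypoxia control replicates 1 and 3 were its highest values at 12.42 and 12.29. LDHA, which turns pyruvate into lactate, was 0.26 ± 0.078 higher, with 7 of 9 hypoxia fetuses above the normoxia range, and was still called with hypoxia control replicate 1 moved (0.21). IGFBP3, an insulin-like growth factor binding protein, was 0.50 ± 0.17 higher, and HIF1A itself 0.24 ± 0.081. PFKL (0.18 ± 0.073), of glycolysis, and ARNT (0.11 ± 0.048), the partner of HIF-1α, completed the 7. ARNT was well above background on 7 of 16 arrays and lost its call in 6 of 13 alternative settings, and over the other corrections and scalings ARNT ran from 0.07 to 0.67, HIF1A from 0.21 to 0.42 and IGFBP3 from 0.42 to 1.07. VEGFA (-0.01 ± 0.14), EDN1 (0.43 ± 0.29), ALDOA (-0.08 ± 0.074) and EPO (-0.04 ± 0.084, above background on 2 arrays) were not called. With hypoxia control replicate 1 moved, 4 genes of the list were called higher and 0 lower, and without it 7 and 0. Like SLC2A3, the genes SLC2A1 (0.20), HIF1A (0.17) and PFKL (0.14) lost the call with that array moved, so the 4 are not all from the 7 above.

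PDXK, which makes the active form of vitamin B6, was the other large increase. Its median was 10.27 in normoxia, with a highest value of 10.59, and 11.29 in hypoxia, with values from 10.37 to 12.23, and 7 of 9 hypoxia fetuses lay above the normoxia range. The difference was 0.89 ± 0.23 (exact permutation within the ketamine arms, p = 0.0033; limma adjusted P = 0.431), and 0.77 with hypoxia control replicate 1 moved.

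The largest called decrease among named genes was that of TF, the transferrin gene, which oligodendrocytes and choroid plexus express and the liver secretes. It read 12.51 to 14.54 in normoxia with a median of 13.04 and 11.15 to 13.77 in hypoxia with a median of 12.53, so the groups overlapped and 4 hypoxia fetuses were below every normoxia fetus. The difference of -0.88 ± 0.38 was called by limma's test and missed 0.05 by exact permutation within the ketamine arms (p = 0.053), and the call was lost when any 1 of 7 arrays was left out, hypoxia control replicate 1 among them (-0.83, limma P = 0.051). TTR, the defining choroid plexus marker, spread from 8.42 to 16.00 in normoxia and from 6.78 to 12.82 in hypoxia, with the highest values in normoxia control replicates 1 and 2. The spot of replicate 1 was saturated, so its level there is a lower limit. The pooled difference as measured, -2.15 ± 1.2, was the most negative of all probes and was not called (exact permutation within the ketamine arms, p = 0.12). With 1 array left out it ran from -2.76 to -1.37 and was not called in 14 of the 16 fits. The TTR difference was -4.30 ± 1.7 without ketamine (limma P = 0.0355; exact permutation p = 0.089) and -0.13 ± 1.3 with it, and the difference between the arms was not called (interaction P = 0.0873 by limma). All 4 choroid plexus markers on the array had negative pooled differences and 0 were called, or 0 to 2 when 1 array was left out. The other 3 did not follow TTR by arm. Without ketamine IGF2 was at 0.42, IGFBP2 at 0.11 and AQP1 at -0.03, and the list's median was 0.041. With ketamine they were at -1.5, -0.7 and -0.02, and the median was -0.41. The mean log2 signal of the 4 was 9.40 to 11.57 in hypoxia and 10.03 to 12.11 in normoxia. The part of choroid plexus in the TF result was not tested.
TF: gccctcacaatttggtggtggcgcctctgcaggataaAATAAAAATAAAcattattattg
The TF probe is shown because it lies over a repeat of the AATAAA letters.

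FZD2, a Wnt receptor, read 10.02 to 10.47 in normoxia and 9.09 to 10.56 in hypoxia, and 6 of 9 hypoxia fetuses were below every normoxia fetus while 1 was above all. Its difference was -0.45 ± 0.16, with -0.45 by a second probe, and it was -0.25 and not called with hypoxia control replicate 1 moved. SLC38A3, a glutamine transporter, named here by hand because the files call it only an amino acid system N transporter, differed by -0.39 ± 0.13 with 6 of 9 hypoxia fetuses below the normoxia range, and remained called with that array moved (-0.32). The other leading decreases were RAP2A, NKX6.1, CRYAB, GLUD1, CPT1A, NOS3, SHMT1, KITLG and CCND2, between -0.36 and -0.27. NKX6.1 and KITLG entered the leading genes through the normoxia groups, where every array was well above background. In hypoxia control and hypoxia + ketamine NKX6.1 was so on 4 of 5 and 2 of 4 arrays. For KITLG these were 4 of 5 and 3 of 4. The sizes of the leading decreases and their order hold for the background correction used here: over the others, NKX6.1 reached -1.09 and KITLG -0.70, against -0.90 for TF. GLUD1 encodes glutamate dehydrogenase, CPT1A admits fatty acids to mitochondria, SHMT1, whose probes the files call SHMT2 and whose accession RefSeq now gives to SHMT1, serves one-carbon metabolism and CRYAB is a small heat shock protein. NOS3, the endothelial nitric oxide synthase, was at -0.30 ± 0.13 and lost its call when any 1 of 6 arrays was left out, hypoxia control replicate 1 among them (-0.28 ± 0.13). Second probes of GLUD1 (-0.32 called, -0.16 not called), SHMT1 (-0.22), KITLG (-0.22) and CPT1A (-0.25) were also negative, the last 3 not called, and 1 of those of GLUD1 and that of CPT1A were at 0.10 and 0.02 without ketamine. CPT1A lost its call when any 1 of 9 arrays was left out and in 5 of 14 alternative settings. The glucocorticoid receptor gene NR3C1 went from a median of 7.54 to one of 7.41 (7.24 to 7.54), with 8 of 9 hypoxia fetuses below the normoxia range (-0.14 ± 0.043, or -0.36 to -0.11 over the other corrections and scalings). It was -0.10 and not called with hypoxia control replicate 1 moved.

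Several lists held no call at all. None of 20 ribosome and translation genes, 9 ubiquitin and proteasome genes, 8 apoptosis genes, 7 immediate early genes, 9 prostaglandin genes, 27 genes of TGF-beta, BMP and activin signaling, 5 antioxidant genes, 6 oxidative phosphorylation genes or 5 proliferation genes was called. Not all of these counts stayed at 0. TGF-beta, BMP and activin genes held 1 or 2 lower calls in 19 of the other settings, leave-outs included, and none in 11. Oxidative phosphorylation genes held 1 lower call in 12 of them and none in 18. With the slide as a block each of these 2 lists held 1 lower call. In some settings or leave-outs immediate early genes and antioxidant genes held 1 higher call and proliferation genes 1 lower call. Prostaglandin genes held 1 higher call in some and 1 lower call in some. Many ribosome probes read about 16, the top of the scale, where a change would not be seen. PTGS2, the inducible prostaglandin synthase, stood at 0.63 ± 0.33 and was not called. Other lists held 1 or 2 calls, to be read against 6.58% called higher and 4.19% called lower over all named genes. Of 22 neuropeptide and receptor genes TAC3 (-0.24) and OPRM1 (-0.12) were called lower, of 16 matrix genes LGALS1 and MMP2 were lower, of 10 glutamate genes GRIA1 was higher, and of 10 complement and coagulation genes SERPINA1 was higher, near background, and PLAU lower. Leaving out 1 array gave 2 to 5 lower neuropeptide genes (5 without normoxia control replicate 1) and 0 to 3 lower matrix genes, 0 without normoxia control replicates 1 or 3, normoxia + ketamine replicate 2 or hypoxia control replicates 3 or 4. TAC3 reached -0.57 over the other corrections and scalings.

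**Figure D4:**
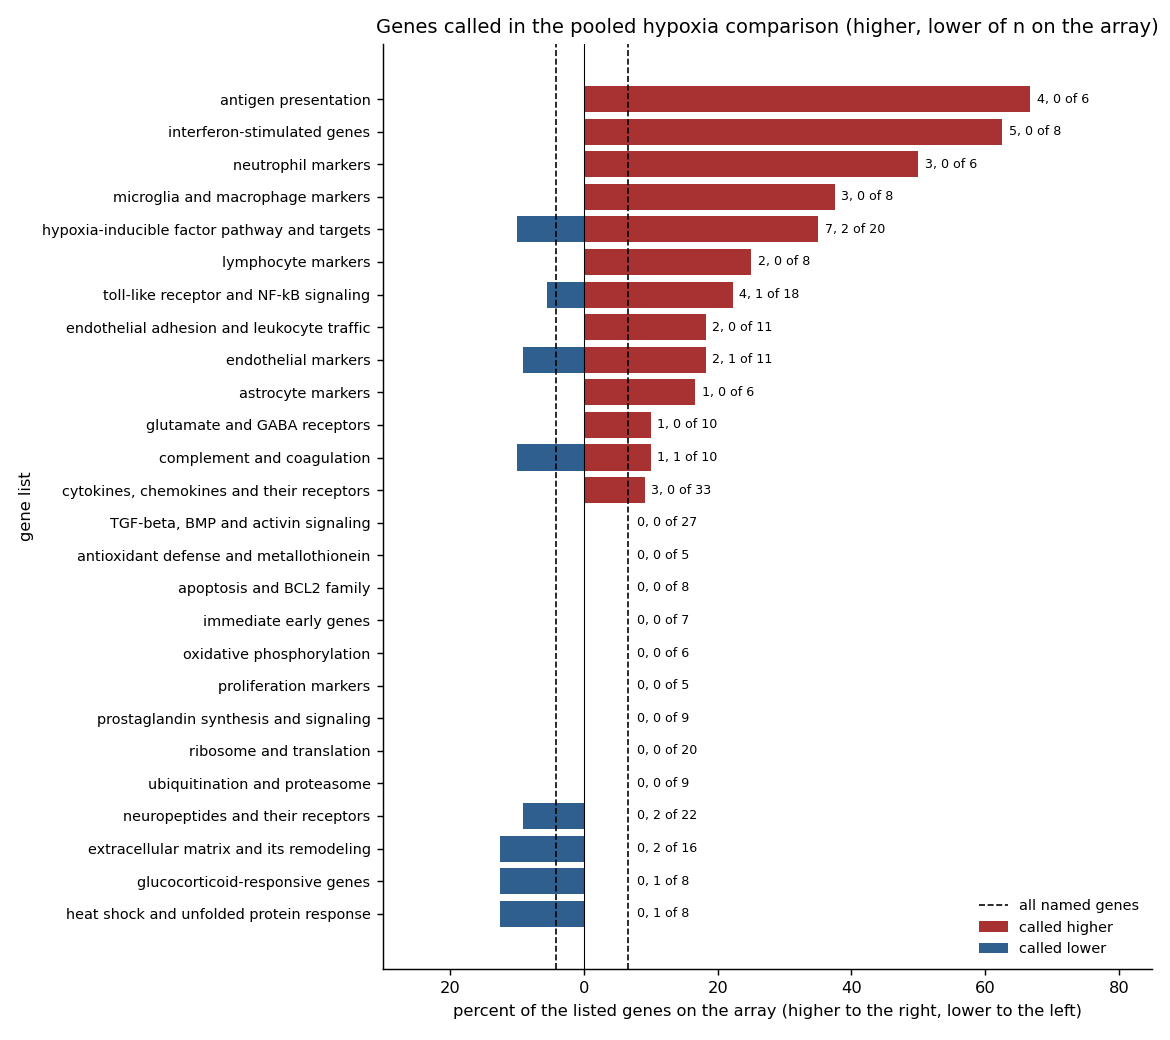
Percent of each gene list called higher (right) or lower (left) in the pooled comparison, for lists with at least 5 genes on the array, with the dashed lines at the shares over all 1003 named genes, 6.58% and 4.19%. Antigen presentation genes, interferon-stimulated genes and neutrophil markers have the highest shares called higher. B2M and PSMB8 count in both the antigen presentation and the interferon list, and all called neutrophil markers are cathelicidin genes. The lists were chosen with earlier results of these data known.

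The pooled difference combines both arms, which share no array. Without ketamine, 1066 probes (7.1%) were called between 5 hypoxia and 3 normoxia fetuses, 410 higher (2.73%) and 656 lower (4.37%). With ketamine, 1001 (6.67%) were called between 4 and 4, 443 higher (2.95%) and 558 lower (3.72%), and 1 unnamed probe (0.00666%) passed adjustment (0.73 ± 0.068, adjusted P = 0.0419 by limma). Over all probes 51.1% had the same sign in both, against 59.2% of the probes called without ketamine and 51.5% of those called with it. The share was higher for large increases only. It was 46 of the 48 called at least 2-fold higher without ketamine (95.8%) and 23 of the 27 called at least 2-fold higher with ketamine (85.2%). For decreases of at least 2-fold, both of the 2 probes called without ketamine had the same sign with it, and none of the 5 called with ketamine had the same sign without it. In all, 108 of 15008 probes were called in both arms, 51 higher in both, 28 lower in both and 29 in opposite directions. This overlap was not tested against the one that the 7.1% and 6.67% called in the single arms would give by themselves. A gene with more than 1 probe, such as B2M, counts more than once in it.

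Of the 12 leading increases, 8 were numerically larger without ketamine and 4, those of the cathelicidin genes, with it. CXCL10 was 4.13 against 2.35, SELP 2.54 against 0.94, IRF1 1.81 against 0.98 and NFKBIA 1.33 against 0.36, with interaction P from 0.0683 to 0.379 by limma, so these differences between arms were not called. B2M was 1.03 and 0.80 and PSMB8 1.22 and 0.66. The interaction was called for 957 probes (6.38%), 592 with a more positive difference under ketamine (3.94%) and 365 with a more negative one (2.43%), 0 after adjustment, with a lowest adjusted P of 0.734. With 3 against 5 fetuses the smallest two-sided exact p is 0.018, and with 4 against 4 it is 0.029.

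**Figure D5:**
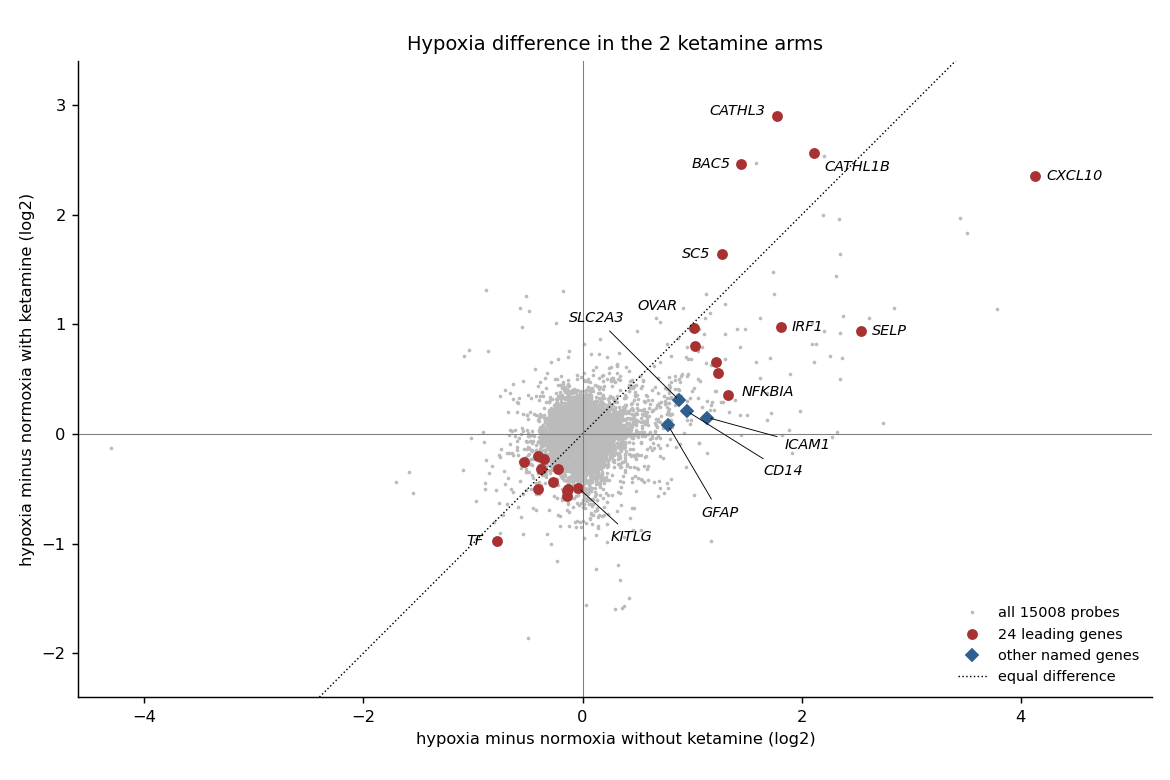
Hypoxia difference (log2) without ketamine on the horizontal axis and with ketamine on the vertical axis, for all 15008 probes in grey, with the 24 leading genes and other named genes marked. The leading increases lie in the upper right, with CXCL10 at 4.13 and 2.35 and CATHL3 at 1.77 and 2.90.

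Most probes, 13352 of 15008, could not be named, and the largest differences among those called were chosen after their values were seen. A_70_P064281 read 7.76 to 8.75 in normoxia with a median of 7.89 and 8.38 to 13.42 in hypoxia with a median of 10.99, and 7 of 9 hypoxia fetuses were above the normoxia range, hypoxia control replicate 1 and hypoxia + ketamine replicate 3 being the exceptions. Its difference was 2.68 ± 0.62 (exact permutation within the ketamine arms, p = 0.0028; limma adjusted P = 0.400), and 2.91 with hypoxia control replicate 1 moved, where it passed adjustment. A_70_P066676 was the clearest decrease: normoxia values lay between 14.74 and 14.90 and hypoxia values between 13.47 and 14.56, with no overlap. Its difference was -0.78 ± 0.15 (exact permutation within the ketamine arms, p = 0.00051; limma adjusted P = 0.361), -0.97 without and -0.61 with ketamine. A_70_P001546 and A_70_P016816 are alike over most of their length, with a longest identical stretch of 20 bases. They were 0.87 and 1.21 higher and were 2 of the 4 probes that passed adjustment without hypoxia control replicate 1 (1.06 and 1.41). The sequences are given so that these transcripts can be identified.
A_70_P064281: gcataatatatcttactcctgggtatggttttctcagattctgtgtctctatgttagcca
A_70_P066676: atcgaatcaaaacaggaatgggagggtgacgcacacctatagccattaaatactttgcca
A_70_P001546: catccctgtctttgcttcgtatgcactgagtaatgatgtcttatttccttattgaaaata
A_70_P016816: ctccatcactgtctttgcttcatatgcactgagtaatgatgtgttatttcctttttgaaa
None of these 4 holds AATAAA.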

How the data were processed

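RNA from frontal cortex was hybridized to one-colour Agilent sheep arrays, 1 array per fetus. The p-values measure the spread between fetuses taken as independent, and the sources do not say whether both twins of a ewe were used. The deposited scanner files hold spot intensity per the file headers (Agilent Feature Extraction 10.1.1.1), and the authors also deposited a table of processed log2 values, used as an alternative; the submitters' notes name limma and R 2.15.1. From 15744 spots, 536 control spots were left out after normexp background correction (offset 50) of the mean signal, arrays were quantile normalized, 222 outlier spots were set to missing and spots of 1 probe were averaged, giving 15008 probes. Spots well above background made up 69.19% to 76.91% per array; the number of arrays limits the precision. Differences are log2, from limma 3.58.1 (R 4.3.3) with terms for hypoxia and ketamine. A call is P under 0.05, unadjusted, as in the study's methods, with Benjamini-Hochberg values beside it. Single genes were also tested by exact permutation within the ketamine arms (3920 arrangements, smallest p 0.00026). Of 15008 probes 1656 were named (1003 genes, the brightest probe of each), 142 of them by the file's own gene name, 132 by a hand-made list that matched the files' older names and descriptions to symbols (such as GLUT-1 to SLC2A1) and the others through RefSeq. Named in the text are the 12 largest called differences each way among genes that all arrays of some group measured well above background, called list members and the genes the study measured by PCR; others were chosen after their values were seen, and 2 listed genes are not reported here or counted in the lists. The comparison and the gene lists were chosen with earlier results of these data known. The scripts were tested on simulated data. Alternatives covered background, scaling, dim probes, the labels of 1 array, slide, replicate number, weights, covariates and each array left out.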

Additional observations from a re-analysis of the deposited data

Results flagged for a closer look

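OVAR in hypoxia + ketamine replicate 2 read 15.07, apart from the other 3 fetuses of its group, whose values ran from 13.34 to 13.44. It was the 1 such array among 72 groups of values tested, and chance sets apart about 1 group in 20.

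The hypoxia difference was not the same in both ketamine arms for 3 of the 65 named genes, by the interaction term at an unadjusted P under 0.05. This share is no higher than the 6.38% of all probes, and none passed adjustment over all probes (lowest adjusted P 0.734). GFAP was 0.78 higher in hypoxia without ketamine and 0.08 with it, a difference of -0.70 (P = 0.00781 in limma's fit over all probes; the exact permutation p was 0.018 without and 0.77 with ketamine), and all 5 hypoxia control fetuses were above every normoxia fetus. CD14 was 0.95 without and 0.21 with ketamine, a difference of -0.74 (P = 0.0490 in the same fit; exact permutation p 0.054 and 0.11). KITLG was -0.04 without and -0.49 with ketamine, a difference of -0.46 (P = 0.0357 in the same fit; exact permutation p 0.86 and 0.029). KITLG was among the tested genes through the normoxia groups only. It was well above background on 4 of 5 hypoxia control and 3 of 4 hypoxia + ketamine arrays.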

How the results depend on the processing

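The pooled calls (1159, of them 530 higher and 629 lower) stayed within 1.5 times under every background correction, scaling, filter and model run, except on slide 2 alone, where 551 were called (243 higher, 308 lower), and when only 1 probe per named gene was counted (108). After Benjamini-Hochberg adjustment 0 pooled and 0 interaction calls were left. Scaling the scanner's processed signal to the 75th percentile turned the split to 549 higher and 430 lower (56.1% higher against 45.7%). Leaving out 1 array gave 907 to 1354 calls (406 to 590 higher, 501 to 764 lower), the lowest without normoxia control replicate 3, and 732 to 1126 interaction calls. The share of probes with the same sign in both arms, 59.2% of those called without ketamine and 51.5% of those called with it, was 47.5% for the latter at the 75th percentile, 63.2% and 58.2% with the slide as a block, and 51.2% to 62.6% and 44.2% to 59.9% without 1 array, lowest for both without hypoxia control replicate 2. The cause was not tested.

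Replicate numbers were not used to pair the samples in the main fit. Deviations of 21 same-numbered pairs correlated at a median of 0.044 (-0.11 to 0.37), 6 of them over 0.1. Of 26 other pairs of the same slide 4 were over 0.1 (median -0.0011, highest 0.2), and of 48 of different slides 6 (median -0.032, highest 0.19). Same-numbered pairs thus had the highest median and the highest single value. Whether same-numbered fetuses were twins of a ewe was not tested. With the replicate number as a block 656 probes were higher and 852 lower, 0 after adjustment (lowest adjusted P 0.0533 by limma, against 0.361), and the shares were 65.6% and 59.1%. Among the called named genes ARNT, LGALS1, ABCB1 and TNF lost the call with that block. With the slide as a block ARNT, LGALS1, ABCB1 and IRF2 lost it.

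Of 2011 values of single genes under an alternative, 1692 kept direction and side of the threshold, 293 lost the call, 4 (all of TLR4) gained it and 22 changed sign. The last were uncalled genes near 0: BCL2 (0.00, 0.01 or 0.02 by setting, and -0.07 to 0.07 without 1 array), PRKACA (0.00, 0.03 or 0.04, and -0.03 to 0.03) and MYD88 (0.00 on slide 1 alone). Of the 56 called named genes, 50 were called without hypoxia control replicate 1 and 36 with it in normoxia + ketamine, where among others GFAP (0.28), TLR2 (0.25), SLC2A1 (0.20) and HIF1A (0.17) lost the call. Leaving out some single array cost 24 of them the call: CCND2 and PLAU without normoxia control replicate 3, LYZ without hypoxia + ketamine replicate 2, PFKL without hypoxia + ketamine replicate 3, SLC2A1 without normoxia control replicate 1 or hypoxia + ketamine replicate 1, SERPINA1 without normoxia control replicate 1 or hypoxia + ketamine replicate 3, OVAR without normoxia control replicate 3 or hypoxia + ketamine replicate 2, KITLG on leaving out any of 4 arrays, ICAM1 and NOS3 any of 6, and TF, CPT1A, ARNT, TRAF3, LCK, FCER1G, CD86, MMP2, TNF, GRIA1, LGALS1, IL1RN, IRF2 and ABCB1 any of 7 to 12. Dim probes limit sizes: over the other background corrections and scalings 28 of the 56 moved by more than 1.5 times, 6 of them leading genes, and each was largest with the scanner's processed signal. SELP ran from 1.52 to 3.53, LYZ from 0.63 to 2.10, ARNT from 0.07 to 0.67, IL1RN from 0.15 to 0.96, IGFBP3 from 0.42 to 1.07, TLR2 from 0.28 to 0.66 and NKX6.1 from -1.09 to -0.28.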
